A study of Mus musculus with 8 samples.

Results

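The 10 genes described here build the microvilli of the intestinal brush border or hold neighbouring cells and microvilli together: Vil1, Espn, Pls1, Eps8, Myo1a, Myo7b, Cdhr2, Cdhr5, Ush1c and Cdh17. They were taken by gene name from the arrays and are covered by 15 of 55669 probes, as 10 of 34963 gene names. Expression was profiled on 8 one-colour arrays from mice of mixed C57BL/6 and 129 background. Medullary thymic epithelial cells (mTEC) gave 3 Cdx1-/- and 3 Cdx1+/+ samples, each pooled from 4 to 6 thymi and sorted as live Epcam+ UEA1+ CD45- cells that were CD80hi and MHCIIhi. Small intestine epithelial cells (SIEC), sorted as live Epcam+ CD45- cells and pooled from 3 mice, gave 1 array labelled Cdx1-/- and 1 labelled Cdx1+/+. Which part of Cdx1 the mutant allele lacks, and the age of the mice, are not given in the sources used here.

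A microvillus is a finger of plasma membrane around a bundle of parallel actin filaments. Villin (Vil1), espin (Espn) and plastin 1 (Pls1) cross-link the bundle, Eps8 sits at its tip, and the motor myosin 1a (Myo1a) ties it to the membrane. In the intestine, the protocadherins Cdhr2 and Cdhr5 join the tips of neighbouring microvilli, and their tails are held by the scaffolds harmonin (Ush1c) and Anks4b with the motor Myo7b and its light chain Calml4. Cdh17, the liver-intestine cadherin, joins epithelial cells along their sides. Cdx1, a homeobox gene of the caudal family, encodes a DNA-binding regulator found in the intestinal lining. Mature mTEC transcribe genes of many peripheral organs at low levels, which exposes developing T cells to their products, and the series asks how that ectopic expression differs without Cdx1.

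The Cdhr5 probe, the one that showed the largest difference of the 10 genes, lies at chr7:148455764-148455823 on the minus strand (mm9) and reads as follows.
Cdhr5 probe: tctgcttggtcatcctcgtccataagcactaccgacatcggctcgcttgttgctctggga
The 250 bases before the annotated start are shown for Cdhr5 (chr7:141276787-141277036, minus strand), Vil1 (chr1:74409134-74409383, plus strand) and Cdhr2 (chr13:54701213-54701462, plus strand), from RefSeq, build GRCm38.p6. These genes were picked from those that fell in Cdx1-/- mTEC, and binding of Cdx1 to them was not tested. Myo1a and Ush1c also fell and had a window, each with 0 matches to the letters searched, and are not printed. Capitals mark matches to the caudal core, whose letters are TTTAT and on the other strand ATAAA, or to the HNF1 core, GTTAAT, which on the other strand is ATTAAC.
Cdhr5: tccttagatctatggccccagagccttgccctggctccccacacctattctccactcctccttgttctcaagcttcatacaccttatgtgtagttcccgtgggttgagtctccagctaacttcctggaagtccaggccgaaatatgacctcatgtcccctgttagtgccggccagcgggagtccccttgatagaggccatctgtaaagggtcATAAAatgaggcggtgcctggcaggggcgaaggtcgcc
Vil1: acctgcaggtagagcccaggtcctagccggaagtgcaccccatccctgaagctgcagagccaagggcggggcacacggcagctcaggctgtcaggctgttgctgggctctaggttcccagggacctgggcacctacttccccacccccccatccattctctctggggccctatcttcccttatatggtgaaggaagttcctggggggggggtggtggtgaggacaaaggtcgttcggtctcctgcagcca
Cdhr2: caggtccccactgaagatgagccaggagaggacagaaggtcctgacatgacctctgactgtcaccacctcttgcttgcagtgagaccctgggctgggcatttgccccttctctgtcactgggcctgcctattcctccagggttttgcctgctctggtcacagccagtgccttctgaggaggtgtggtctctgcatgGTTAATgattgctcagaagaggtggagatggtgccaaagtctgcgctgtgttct

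Over windows from 250 bases before to 50 after the start, 7 of the 10 genes had an entry. Eps8, Myo7b and Cdh17 had none. The caudal core matched in 2 of these 7 genes, Cdhr5 (its first base at -38) and 1 window of Espn (at -195). It is held by 40% of 32851 promoters of the same length. The shares of promoters count windows rather than genes, and Espn had more than 1 window. Of these genes, Cdhr5 fell in Cdx1-/- mTEC and Espn did not pass the test. The HNF1 core matched in Cdhr2 (at -54) and is held by 7.1% of promoters, and the HNF4 letters CAAAGTCCA, which on the other strand are TGGACTTTG, matched in none of the 7 genes and in 0.475% of promoters. The matches do not overlap each other, both strands were searched, and some of these letters were chosen after the windows had been read. A match is a run of letters, not a bound site.

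Levels below are on a log2 scale on which 0 is the signal at the array's 75th percentile. A level belongs to its probe and is compared between arrays only. The share of spots well above background was 58.6% to 59.2% in Cdx1-/- mTEC and 59.1% to 63.5% in Cdx1+/+ mTEC, against 44.6% and 46.3% in SIEC labelled Cdx1-/- and Cdx1+/+, and no spot was saturated. Of 10 mature mTEC markers, such as Aire and Foxn1, 0 passed the genotype test (limma, 2-sided, p adjusted over all genes), 1 was lower at an unadjusted p under 0.05, and the median log2 difference was -0.01. Of those 10, 6 were above background on no SIEC array. The Cdx1 probe, near the end of its transcript, read 5.15 ± 0.10 in Cdx1-/- mTEC and 6.13 ± 0.05 in Cdx1+/+ mTEC (SD, n = 3 each). In intestine it went against the labels: the SIEC array labelled Cdx1-/- read 6.73, and the one labelled Cdx1+/+ read 5.13. The Cdx2 probe went the other way, at 5.45 on the SIEC array labelled Cdx1-/- and 5.70 on the one labelled Cdx1+/+. Cdx2 also fell in Cdx1-/- mTEC, with a difference of -0.84 ± 0.13 (SE, limma, adjusted p = 0.0123). Cdx1-/- mTEC replicate 1 and both SIEC arrays shared slide 2, and the 5 remaining mTEC arrays shared slide 1.

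In mTEC, 7 of the 10 microvillus genes fell in Cdx1-/- samples and 0 rose, while 3 (Cdh17, Pls1 and Espn) did not pass the test. At an unadjusted p under 0.05, limma had 8 lower and 0 higher. Among all 24338 genes tested, 6.62% fell, 6.4% rose and 13% changed in either direction. The median difference of the 10 genes was -0.58 on the log2 scale, against 0.01 over all genes. All 10 entered the test because their brightest probe was well above background on all 6 mTEC arrays, so none was left out for dimness. The groups did not overlap for 8 of the 10, with all 3 Cdx1-/- arrays below all 3 Cdx1+/+ arrays, which held for 17.7% of all genes. These samples were pooled cells, so fewer cells holding a transcript and less RNA per cell cannot be told apart. The labels call the arrays independent replicates, each from its own pool of thymi.

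**Figure D1:**
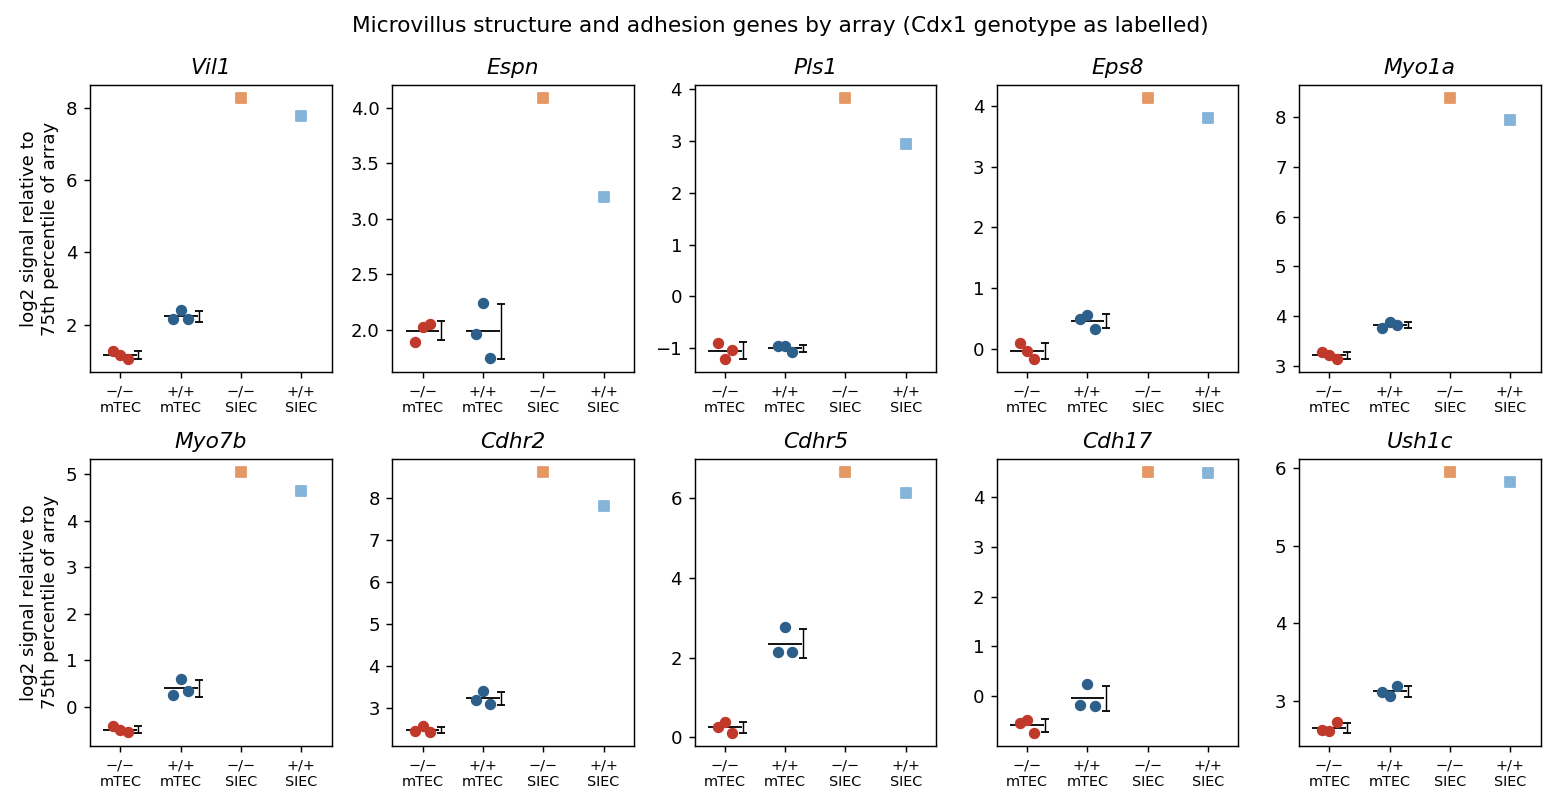
Log2 signal relative to the array's 75th percentile (y axis, its own scale in each panel) of the 10 genes on the 3 Cdx1-/- mTEC arrays, the 3 Cdx1+/+ mTEC arrays and the SIEC arrays labelled Cdx1-/- and Cdx1+/+. Points are arrays, lines are means and bars are 1 SD (n = 3). The Cdx1-/- mTEC points lie below the Cdx1+/+ points for 8 genes and mix with them for Espn and Pls1, and SIEC lies above mTEC in every panel.

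The protocadherin pair at the microvillus tips fell together. Cdhr5, which binds Cdhr2 across the gap between microvilli, read 0.26, 0.38 and 0.12 in Cdx1-/- mTEC, against 2.15, 2.77 and 2.15 in Cdx1+/+ mTEC. Every Cdx1-/- array lay well under the lowest Cdx1+/+ array. The difference was -2.10 ± 0.19 (SE, 95% interval -2.55 to -1.66, adjusted p = 0.00326), a 4.30-fold lower signal, and 14 of the 24338 genes had a more negative difference. Its interval met that of none of the other 9 genes. Cdhr2 (probe at chr13:54837957-54838016, mm9) read 2.45, 2.55 and 2.42 in Cdx1-/- mTEC, against 3.18, 3.39 and 3.10 in Cdx1+/+ mTEC. The 3 Cdx1-/- values were close together and below all Cdx1+/+ values. The difference was -0.75 ± 0.10 (SE, adjusted p = 0.00946), or 1.68-fold lower.

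The parts that anchor these cadherins inside the cell fell as well. Myo7b, the motor that carries the adhesion complex towards the tips, read -0.41, -0.49 and -0.55 in Cdx1-/- mTEC, against 0.26, 0.61 and 0.34 in Cdx1+/+ mTEC. The groups were apart, and the difference was -0.88 ± 0.11 (SE, adjusted p = 0.00776), or 1.85-fold lower. The Myo7b probe (chr18:32119094-32119153, mm9) lies on the same chromosome as the Cdx1 probe (chr18:61178558-61178617). The mice were of mixed background, and whether this linkage plays a part in the fall of Myo7b was not tested. Ush1c, the PDZ scaffold harmonin that is also a gene of Usher syndrome in humans, read 2.62, 2.60 and 2.73 in Cdx1-/- mTEC, against 3.11, 3.06 and 3.20 in Cdx1+/+ mTEC. The groups were apart by more than their own spread, with a difference of -0.47 ± 0.09 (SE, adjusted p = 0.0191), or 1.38-fold lower.

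The call for Ush1c was close to the threshold and rested on its brightest probe. Its adjusted p was 0.052 with slide as a block. It was 0.053 and 0.0676 without Cdx1+/+ mTEC replicates 1 and 3. Without Cdx1-/- mTEC replicate 1, which leaves slide 1 only, it was 0.0507, and without Cdx1-/- replicate 2 it was 0.0612. A second Ush1c probe, at an earlier position in the transcript, read -1.33, -1.23 and -1.10 in Cdx1-/- mTEC and -0.89, -1.24 and -0.79 in Cdx1+/+ mTEC. Its groups overlapped, and its difference of -0.25 ± 0.14 (SE) did not pass (adjusted p = 0.282 over all probes).

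Anks4b and Calml4, the scaffold and the light chain of the same adhesion complex, were read from a list of related genes. Anks4b read 0.11, 0.10 and 0.08 in Cdx1-/- mTEC and 0.60, 0.89 and 0.58 in Cdx1+/+ mTEC, a difference of -0.60 ± 0.11 (SE, adjusted p = 0.0182). Calml4 read 2.44, 2.39 and 2.50 in Cdx1-/- mTEC and 3.11, 3.26 and 3.09 in Cdx1+/+ mTEC, a difference of -0.71 ± 0.09 (SE, adjusted p = 0.00707). Neither gene's groups overlapped. With these, all 6 components of the intermicrovillar adhesion complex named here (Cdhr2, Cdhr5, Ush1c, Myo7b, Anks4b and Calml4) fell, by between 1.38-fold for Ush1c and 4.30-fold for Cdhr5. Among all genes tested, 6.62% fell. With slide as a block in limma, Ush1c did not pass (adjusted p = 0.052) and Anks4b was close to the threshold (0.0478). The 10 genes and the list of related genes were chosen with earlier results of these data known, so the count of 6 is a description.

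Of the 3 actin bundlers, Vil1 fell and Espn and Pls1 did not pass the test. Vil1, the calcium-regulated bundler and severer that marks the brush border, lay at 1.28, 1.16 and 1.06 in Cdx1-/- mTEC, against 2.15, 2.41 and 2.15 in Cdx1+/+ mTEC (probe at chr1:74481982-74482041, mm9). The difference was -1.07 ± 0.11 (SE, 95% interval -1.34 to -0.81, adjusted p = 0.00456), and with Cdhr5 it was 1 of 2 microvillus genes past the test and at least 2-fold lower, which 1.24% of all genes were. Espn read 1.89, 2.03 and 2.06 in Cdx1-/- mTEC and 1.96, 2.25 and 1.75 in Cdx1+/+ mTEC. The arrays mixed, and the difference of 0.01 had a 95% interval of -0.32 to 0.34 (adjusted p = 0.98). Pls1 read -0.89, -1.21 and -1.04 in Cdx1-/- mTEC and -0.95, -0.97 and -1.08 in Cdx1+/+ mTEC, also mixed, with a difference of -0.05 (95% interval -0.30 to 0.20, adjusted p = 0.787). A second probe of each gave 0.05 for Espn (adjusted p = 0.851 over all probes) and 0.20 for Pls1 (0.819), this Pls1 probe being above background on 2 of 3 arrays of each genotype. The intervals of Espn and Pls1 did not reach that of Vil1. They leave room for changes in either direction of up to about 0.3 log2 units, and the difference between Vil1 and the other bundlers was not tested.

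Eps8 caps and bundles actin at the microvillus tip. It read 0.11, -0.02 and -0.16 in Cdx1-/- mTEC, against 0.49, 0.57 and 0.34 in Cdx1+/+ mTEC. The groups did not overlap, and the difference of -0.49 ± 0.11 (SE, adjusted p = 0.0332) made the signal 1.40-fold lower. The call was lost when any single array but Cdx1-/- replicate 1 was left out. Leaving out Cdx1+/+ mTEC replicate 1, 2 or 3, or Cdx1-/- mTEC replicate 2 or 3, gave adjusted p-values of 0.057 to 0.0884, and leaving out Cdx1-/- replicate 1 gave 0.0428, with differences of -0.56 to -0.42 throughout. A second Eps8 probe was well above background on 0 of 3 Cdx1-/- and 2 of 3 Cdx1+/+ arrays, so it has only a bound in Cdx1-/- mTEC and no fold is given.

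Myo1a, the class I myosin that links the bundle to the membrane, read 3.27, 3.22 and 3.14 in Cdx1-/- mTEC, against 3.77, 3.89 and 3.83 in Cdx1+/+ mTEC. Both groups were tight and apart. The difference was -0.62 ± 0.08 (SE, 95% interval -0.82 to -0.42, adjusted p = 0.00879), or 1.53-fold lower. Its standard error was the smallest of the 10.

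Cdh17 read -0.53, -0.48 and -0.73 in Cdx1-/- mTEC, against -0.17, 0.25 and -0.19 in Cdx1+/+ mTEC. The groups did not overlap, yet Cdx1+/+ replicate 2 stood above the other Cdx1+/+ arrays and the difference of -0.54 ± 0.15 (SE, 95% interval -0.89 to -0.19) missed the threshold (adjusted p = 0.0564). With the replicate number as a block it passed, with an adjusted p of 0.0392, which brought the count to 8 of 10. That fit also called more genes in all, with 1875 of 24338 lower and 1712 higher. Over the alternatives tried, the adjusted p of Cdh17 lay between 0.0392 and 0.138. A second Cdh17 probe, above background on 1 of 3 Cdx1-/- and 3 of 3 Cdx1+/+ arrays, gave -0.52 with overlapping groups (adjusted p = 0.274 over all probes).

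**Figure D2:**
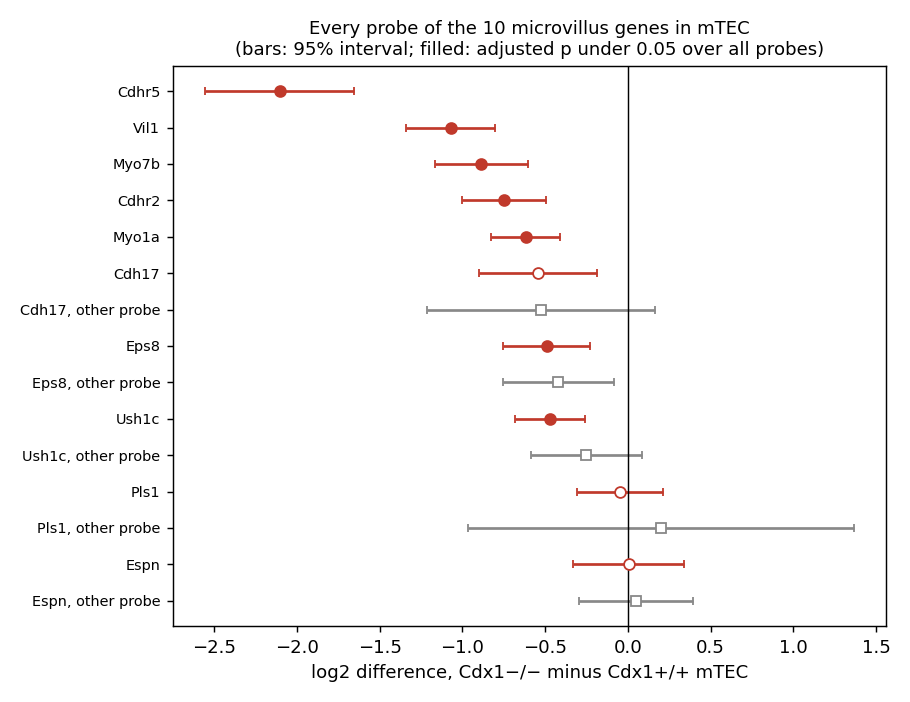
Log2 difference, Cdx1-/- minus Cdx1+/+ mTEC, of all 15 probes of the 10 genes (x axis) with 95% intervals from the fit over all probes. Circles are each gene's brightest probe, squares the other probe where a gene has 2, and filled symbols passed at an adjusted p of 0.05. The 7 filled circles lie below 0 from Ush1c at -0.47 to Cdhr5 at -2.10, and none of the 5 squares is filled. The Eps8 square is a probe above background on no Cdx1-/- array, so its place is not a measured difference.

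Arrays of 1 genotype were not alike in these genes. Cdx1+/+ mTEC replicate 2 was the highest of the 3 Cdx1+/+ arrays for 8 of the 10 genes, and Cdx1-/- mTEC replicate 3 was the lowest of the 3 Cdx1-/- arrays for 7 of the 10. Enterocyte markers outside the 10 genes did not show the same order in Cdx1-/- mTEC, where replicate 3 was the lowest for 3 of 13, and in Cdx1+/+ mTEC replicate 2 was the highest for 7 of 13. Vil1, Cdhr5, Cdhr2, Myo1a and Myo7b passed in all 16 alternatives tried, including each mTEC array left out in turn. Within slide 1 alone their differences were -1.13 for Vil1, -2.11 for Cdhr5, -0.74 for Cdhr2, -0.65 for Myo1a and -0.92 for Myo7b.

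Of the 13 enterocyte markers, digestive enzymes, lipid carriers and regulators such as Sis, Fabp1 and Hnf4a, 10 fell and 0 rose in Cdx1-/- mTEC (median -0.82), and at an unadjusted p under 0.05 limma had 12 lower and 0 higher. Their log2 summed signal was 5.65 to 5.72 in Cdx1-/- mTEC and 6.46 to 6.54 in Cdx1+/+ mTEC. That sum was 12.43 in SIEC labelled Cdx1-/- and 11.83 in SIEC labelled Cdx1+/+. In a summed signal the brightest probes weigh most, so it does not represent a list evenly. No defining enterocyte marker was below background on every mTEC array. Tuft cell markers moved the other way: 6 of 8 rose and 0 fell (7 and 0 at an unadjusted p under 0.05, median 0.79), with a log2 summed signal of 3.79 to 4.01 in Cdx1-/- mTEC and 2.95 to 3.31 in Cdx1+/+ mTEC. With slide as a block 3 of these 6 calls were lost (Gnat3, adjusted p = 0.0627, Ptgs1, 0.0617, and Sh2d6, 0.0843). Their part in the fall of the microvillus genes was not tested. Of the 7 markers of other thymus cells, 1 (Ptcra) fell and 0 rose (1 and 0 at an unadjusted p under 0.05), a call lost with slide as a block (adjusted p = 0.0551), and of 6 goblet, Paneth and enteroendocrine markers 3 fell and 0 rose (3 and 1 at an unadjusted p under 0.05). Of these 3, Chga was lost with the replicate block (adjusted p = 0.0509) and Spink4 with slide as a block (0.0547).

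Genes related to the 10, taken in families, did not fall as a whole. Of 51 such genes 50 were tested in mTEC, of which 5 fell and 7 rose, 38 did not pass, and the median difference was 0.05. Beside Anks4b and Calml4, the 7 partners and Usher relatives held no other gene that passed, Myo7a, Cdh23, Pcdh15, Ush1g and Whrn among them (list median -0.36). With the replicate block Ush1g, which binds harmonin in hair cells, passed too (-0.47, adjusted p = 0.0336 against 0.113 without the block).

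In the villin and gelsolin family, relatives of Vil1 went both ways. Avil (advillin), a villin relative of tuft cells and sensory neurons, read 1.12, 0.98 and 0.85 in Cdx1-/- mTEC and 0.15, -0.19 and -0.20 in Cdx1+/+ mTEC. It rose by 1.06 ± 0.13 (SE, adjusted p = 0.00696) and is also on the tuft marker list. Gsn (gelsolin), an actin-severing protein found in many tissues, rose by 0.48 ± 0.08 (SE, adjusted p = 0.0146), and Vill (villin-like) fell with a difference of -0.33 ± 0.08 (SE, adjusted p = 0.0477). The remaining 3 of 6 did not pass. Vill lost its call with the replicate block (adjusted p = 0.0517) and with slide as a block (0.0829).

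Among 10 other bundlers and tip proteins, the Eps8 relatives split. Eps8l3 read 0.76, 0.57 and 0.90 in Cdx1-/- mTEC and 1.74, 1.84 and 1.68 in Cdx1+/+ mTEC, and fell with a difference of -1.01 ± 0.11 (SE, adjusted p = 0.0052). Eps8l1 read -0.84, -0.97 and -1.13 in Cdx1-/- mTEC and -1.64, -1.65 and -1.72 in Cdx1+/+ mTEC, and rose by 0.69 ± 0.10 (SE, adjusted p = 0.0104). The groups were apart in both, in opposite directions. Pls3 (plastin 3), a bundler of many solid tissues related to Pls1, rose by 0.34 (adjusted p = 0.041), a call lost with the replicate block (0.0564) and with slide as a block (0.085). Against SIEC, mTEC were lower in Eps8l3 (log2 difference -5.79) and higher in Pls3 (2.78).

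Of 9 membrane linkers tested, such as ezrin (Ezr) and its partners, 1 rose (Prom2, 0.38, adjusted p = 0.0458) and 0 fell (1 and 3 at an unadjusted p under 0.05), and Podxl was too dim to enter. Prom2 was lost with the replicate block (0.0554) and with slide as a block (0.107), and Slc9a3r1, a scaffold that binds ezrin, passed with the replicate block only (-0.44, adjusted p = 0.0433 against 0.0878). Of 11 other unconventional myosins 1 rose, Myo1g, a class I myosin of blood cells (0.80 ± 0.16, SE, adjusted p = 0.0244, and 0.0658 with slide as a block), and 0 fell (4 and 1 at an unadjusted p under 0.05). Of 7 other cadherins, Cdh2 (N-cadherin) rose by 0.90 ± 0.13 (SE, adjusted p = 0.0104) and Cdhr4 fell with a difference of -0.38 ± 0.10 (SE, adjusted p = 0.0495, and 0.0598 with slide as a block). Cdh2 was above background on no SIEC array.

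**Figure D3:**
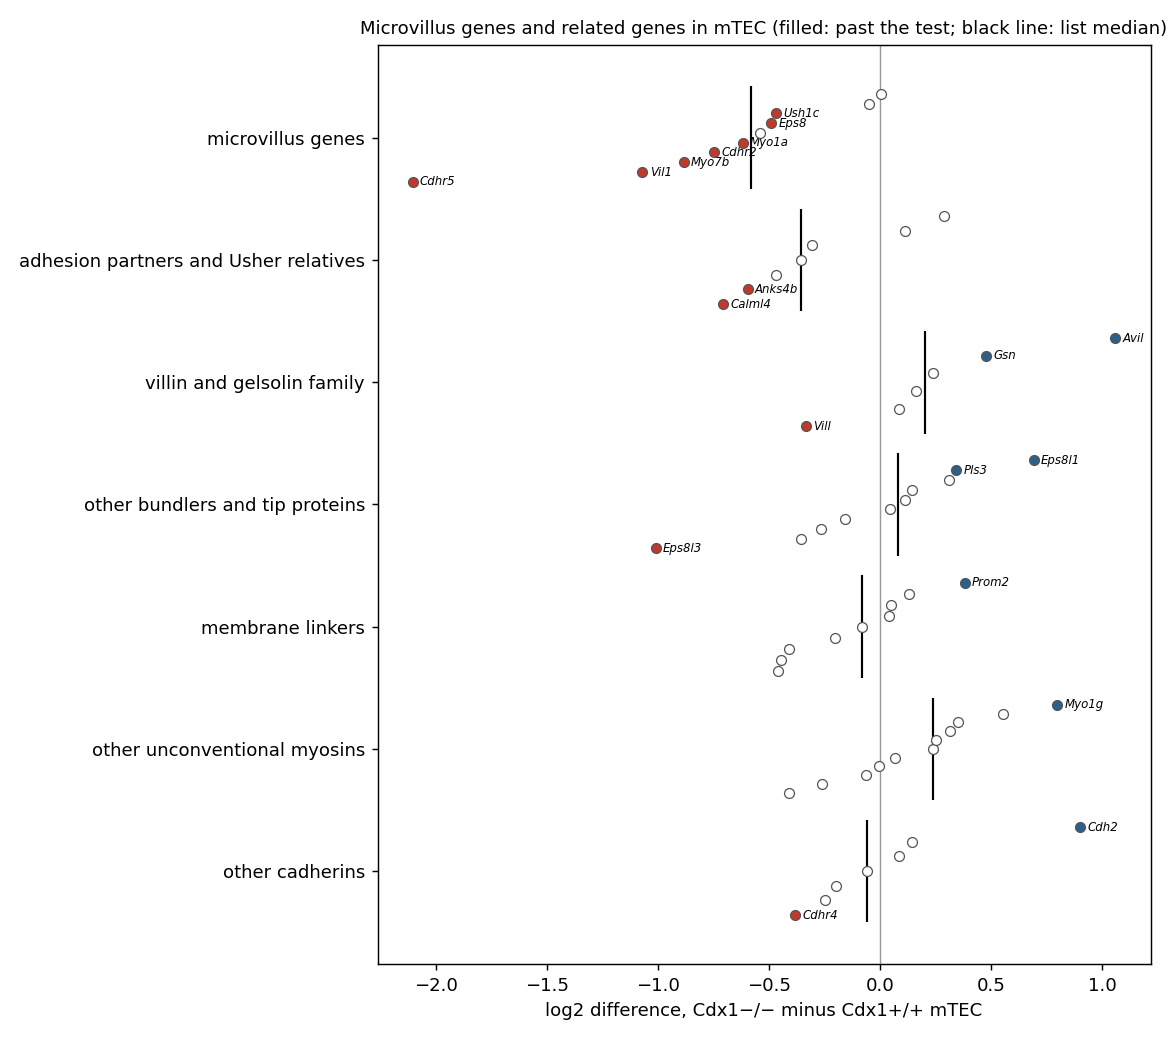
Log2 difference, Cdx1-/- minus Cdx1+/+ mTEC (x axis), of the 10 microvillus genes in the top band and of 50 related genes in 6 families below. Filled symbols passed the test (red fell, blue rose), open symbols did not, and black lines are medians. The microvillus genes have a median of -0.58, and the 6 families have medians of -0.36 to 0.24.

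Against small intestine, all 10 microvillus genes were lower in mTEC. Between tissues the test called 84.1% of 25273 genes, 50.2% lower and 33.9% higher in mTEC, so passing it says little by itself. Every mTEC array lay below both SIEC arrays for all 10, as for 49.4% of all genes, and all 10 passed at 2-fold lower or more, as 35% of all genes did. In size the 10 differed from most genes: their median difference, mTEC minus SIEC, was -4.72 on the log2 scale against -0.46 over all genes. Other intestinal genes shared this. The 13 enterocyte markers had a median of -6.55, and the 6 goblet, Paneth and enteroendocrine markers -4.58, with all 13 and all 6 lower in mTEC. Of the 10 genes, 9 were at least 8-fold lower, as 5.07% of all genes were. That fold was chosen with the values known, and Ush1c stood just inside it at 8.01-fold. The normalization moves the median of all genes between -0.13 and -0.90. Espn, the smallest of the 10 differences, moved with it to -0.93 with quantile normalization, or 1.91-fold lower, and to -2.09 in the authors' deposited table, so 9 of 10 were at least 2-fold lower with quantile normalization. With normexp background correction and without a filter on dim probes, 29.1% and 30.5% of the genes called were higher in mTEC, against 40.3% in the fit used here.

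Vil1 showed the widest gap. It had a lowest, median and highest level of 1.06, 1.71 and 2.41 over the 6 mTEC arrays, against 8.27 and 7.77 in SIEC (labelled Cdx1-/- and Cdx1+/+). The difference was -6.32 ± 0.31 (SE, adjusted p = 6.39e-07), or 79.7-fold lower in mTEC. Cdhr2 followed with a lowest, median and highest level of 2.42, 2.83 and 3.39 in mTEC, against 8.63 and 7.82 in SIEC (labelled Cdx1-/- and Cdx1+/+). Its difference was -5.38 ± 0.31 (SE, adjusted p = 1.46e-06), or 41.5-fold lower. Cdhr5 had 0.12, 1.26 and 2.77 in mTEC, against 6.67 and 6.15 in SIEC (labelled Cdx1-/- and Cdx1+/+), with a difference of -5.11 ± 0.52 (SE, adjusted p = 3.94e-05). Its standard error was the largest of the 10. The fit takes 1 genotype difference for both tissues, while that of Cdhr5 was -2.10 in mTEC and 0.52 between the SIEC arrays as labelled. Such a mismatch enters the standard error. The intervals of Vil1, Cdhr2 and Cdhr5 overlapped, so their order is not settled.

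Myo7b (-4.88 ± 0.27), Cdh17 (-4.79 ± 0.18), Myo1a (-4.65 ± 0.22) and Pls1 (-4.41 ± 0.21) were between 21.3-fold and 29.5-fold lower in mTEC, and their 95% intervals overlapped as well. Eps8, at -3.74 ± 0.19, was 13.4-fold lower. Ush1c, at -3.00 ± 0.15, was lower by less than Vil1, Cdhr2, Cdhr5, Myo7b, Cdh17, Myo1a and Pls1, whose intervals it did not meet. Espn stood last. Its lowest, median and highest mTEC levels were 1.75, 2.00 and 2.25, against 4.09 and 3.19 in SIEC (labelled Cdx1-/- and Cdx1+/+), a difference of -1.65 ± 0.22 (SE, adjusted p = 0.000181) or 3.14-fold lower in mTEC. Its interval of -2.16 to -1.14 met no other gene's. Espn and Pls1, the bundlers without a genotype call in mTEC, thus lay at different distances from intestine.

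With the SIEC labels as given, the gap to intestine was wider in the Cdx1-/- arrays than in the Cdx1+/+ arrays for all 10 genes. For Cdhr5 the difference was -6.42 between the Cdx1-/- mTEC arrays and the SIEC array labelled Cdx1-/-, against -3.79 between the Cdx1+/+ arrays. For Vil1 it was -7.10 against -5.53, and for Espn -2.09 against -1.21. Each of these rests on 1 SIEC array and has no test. The order depends on SIEC labels that the Cdx1 signal goes against. With those 2 labels exchanged, an alternative chosen after seeing the data, the gap was wider for Cdx1-/- mTEC in 7 of 10. It turned for Espn (-1.20 for Cdx1-/- mTEC against -2.10 for Cdx1+/+ mTEC), Pls1 (-3.99 against -4.83) and Cdhr2 (-5.35 against -5.41). Only Cdx1-/- mTEC replicate 1 shared a slide with the SIEC arrays, and against them it gave differences of -6.74 for Vil1, -6.15 for Cdhr5 and -1.75 for Espn.

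**Figure D4:**
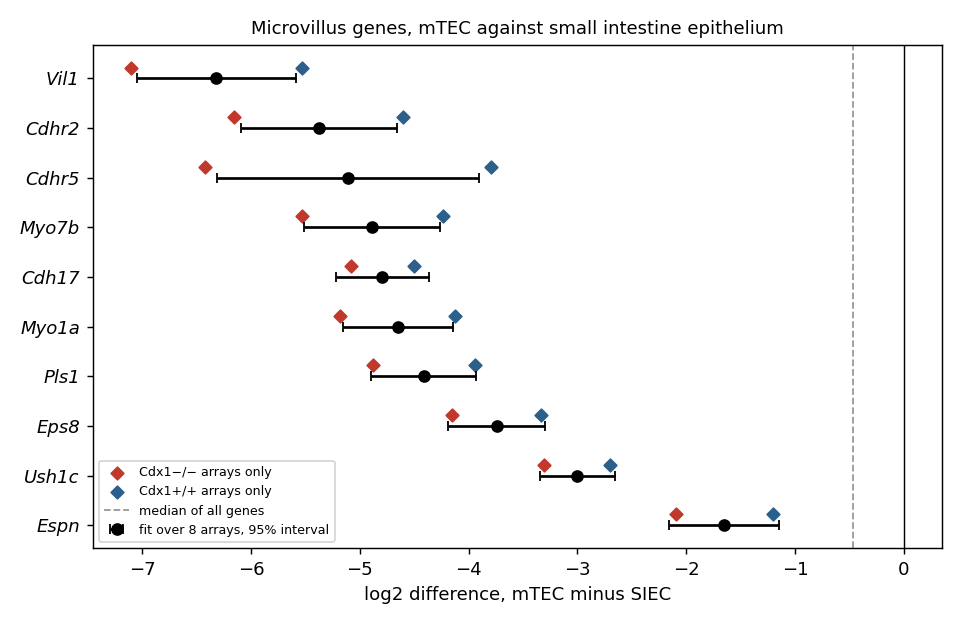
Log2 difference, mTEC minus SIEC (x axis), for the 10 genes ordered by size. Black circles are the fit over 8 arrays with 95% intervals, diamonds use the arrays of 1 labelled genotype alone, and the dashed line is the median of all genes at -0.46. Vil1 is farthest from 0 at -6.32 and Espn nearest at -1.65, and with the SIEC labels as given every Cdx1-/- diamond lies left of its Cdx1+/+ diamond, an order that turns for Espn, Pls1 and Cdhr2 with those labels exchanged.

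Within the SIEC pair, 1 array per label, the 10 genes read higher on the array labelled Cdx1-/-, the array whose Cdx1 signal was also the higher one. The differences ran from 0.04 for Cdh17 to 0.89 for Espn and Pls1, with a median of 0.47 against -0.05 over 18971 genes above background there. None of the 10 reached 2-fold, where 5.61% of genes were at least 2-fold higher and 3.45% at least 2-fold lower. Cdhr2 read 8.63 with the label Cdx1-/- and 7.82 with the label Cdx1+/+, a difference of 0.81. Cdhr5 read 6.67 with the label Cdx1-/- and 6.15 with the label Cdx1+/+, a difference of 0.52. The pair has no replicate check, and scaling decided the sign for the lowest 2: with the array median in place of the 75th percentile, Cdh17 was at -0.19 and Ush1c at -0.08, and 8 of 10 were above 0. In the same pair the log2 summed enterocyte markers were higher on the array labelled Cdx1-/- (12.43, against 11.83 with the label Cdx1+/+), and the 7 markers of other thymus cells, lymphocyte genes of which 2 were above background on neither SIEC array, were too (5.04 against 3.58), while tuft markers were lower (2.52 against 4.07). Their part in these differences was not tested.

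**Figure D5:**
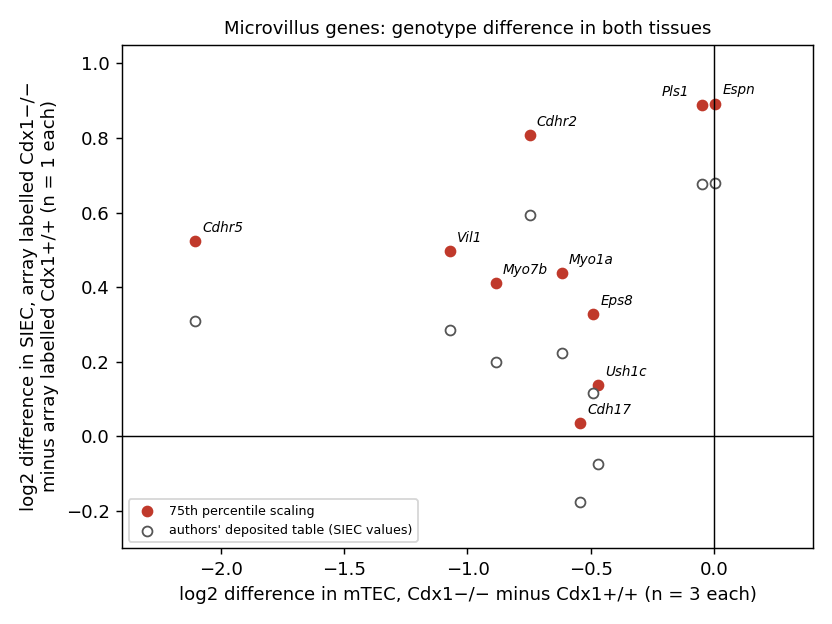
For the 10 genes, the log2 difference in SIEC, array labelled Cdx1-/- minus array labelled Cdx1+/+ (y axis, n = 1 each), against the log2 difference in mTEC, Cdx1-/- minus Cdx1+/+ (x axis, n = 3 each). Filled points use the 75th percentile scaling and open points take the SIEC values from the authors' deposited table. Filled points lie between 0.04 and 0.89 on the y axis, and with the authors' table Cdh17 and Ush1c lie below 0.

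The genes closest to Vil1 and Cdhr5 over the 8 arrays were outside the 10. Likeness was the root-mean-square distance between log2 levels, each centred on its own mean, over 11743 candidate genes. Candidates were protein-coding genes whose probe was well above background on all 8 arrays. The distance takes in the gap between mTEC and SIEC (-6.32 for Vil1, -5.38 for Cdhr2) as well as the genotype. Closest to Vil1 were Mttp (distance 0.226 log2 units), the lipid transfer protein of lipoprotein assembly, Chp2 (0.236), Ugt2b34 (0.238), Rdh7 (0.241) and the cell surface mucin Muc13 (0.243). In Cdx1-/- mTEC these 5 fell with differences of -1.41 (Ugt2b34) to -0.64 (Mttp). Closest to Cdhr5 were Prap1 (0.385), Tm4sf20 (0.415), Lypd8 (0.441), Ms4a18 (0.465) and Ms4a10 (0.488), at larger distances than those of Vil1. They fell with differences of -2.13 (Tm4sf20) to -1.15 (Ms4a10). The arrays are the same ones that gave the tests above, so a gene near Vil1 or Cdhr5 is likely to fall by the way it was picked.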

How the data were processed

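The authors deposited scanner output of Agilent Feature Extraction 10.7.3.1, whose processed intensity is linear, has the background subtracted within the array and is on no common scale across arrays, per the file headers. Their deposited table of normalized signal served as an alternative, and no source used here gives how it was scaled. Probe positions are on mm9, per the file headers. The 10 genes and the lists of related genes and markers were chosen with earlier results of these data known.

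From 59305 non-control spots, outlier-flagged spots were dropped (12 probes), processed intensities were converted to log2, spots of a probe were averaged and the array's 75th percentile over probes was subtracted. A probe entered when 2 or more arrays of a group (for SIEC, the array itself) flagged it well above background, and a gene was its brightest such probe. Groups were compared with limma 3.58.1 (lmFit, eBayes) in R 4.3.3, with 2-sided p-values adjusted by Benjamini-Hochberg over every gene in the fit and a threshold of 0.05: mTEC genotype on 6 arrays, tissue on 8 arrays with genotype as a term. The 2 SIEC arrays have no test. The number of arrays limits the precision. Named were all 10 genes, up to 4 related genes of smallest p per list among those that passed, and the 5 genes nearest to Vil1 and to Cdhr5. Ush1g and Slc9a3r1 were named after their values were seen. The fit was tested on simulated data. Plots used matplotlib 3.10.9.

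Replicate numbers come from the sample titles. Same-numbered Cdx1-/- and Cdx1+/+ mTEC arrays correlated in their deviations from the group means by 0.322, 0.147 and 0.148, so the numbers were taken to pair them, and the block is given where it changes a call.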

Additional observations from a re-analysis of the deposited data

Results flagged for a closer look

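For 8 of the 10 genes all 3 Cdx1-/- mTEC arrays lay below the Cdx1+/+ mTEC arrays, while the SIEC array labelled Cdx1-/- lay above the one labelled Cdx1+/+. The SIEC differences, label Cdx1-/- minus label Cdx1+/+, on the log2 scale were 0.496 for Vil1 (mTEC -1.07), 0.328 for Eps8 (mTEC -0.49) and 0.437 for Myo1a (mTEC -0.62). For the adhesion genes they were 0.412 for Myo7b (mTEC -0.88), 0.807 for Cdhr2 (mTEC -0.75), 0.523 for Cdhr5 (mTEC -2.10) and 0.137 for Ush1c (mTEC -0.47). Cdh17, the remaining one, had 0.035 in SIEC and -0.54 in mTEC. Cdx1 itself had 1.602 in SIEC and -0.98 in mTEC, so in SIEC its signal goes against the labels. These 8 genes and Cdx1 are listed because their SIEC sign was opposite to that in mTEC. Exchanging the 2 SIEC labels would thus match their signs by construction, which says nothing about the labels. Cdx2 had -0.26 in SIEC and -0.84 in mTEC, the same sign in both. Whether the SIEC labels are exchanged was not tested. With 1 SIEC array per label the difference between the tissues was not tested, and the sign for Cdh17 and Ush1c depends on the scaling.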

How the results depend on the processing

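In mTEC, Vil1, Cdhr5, Cdhr2, Myo1a and Myo7b kept their direction and their call under all 16 alternatives, Eps8 under 10 and Ush1c under 9, and both of these kept their direction throughout. The count of microvillus genes that passed was 7, and 5 to 8 under the alternatives. It was 8 with the replicate block, which changed no other call among the 10 than that of Cdh17. The count of all genes that passed was 3170, with 2097 under normexp background correction, 1344 without a filter on dim probes (more genes tested), 1777 with slide as a block, and 1319 to 1851 with each array left out in turn (fewer samples). More genes passed with the replicate block (3587), a strict filter (3568) and quantile normalization (3428). Without a filter on dim probes Eps8 (adjusted p = 0.0833) and Ush1c (0.0545) did not pass, and with the median of its probes Ush1c did not either (0.074). Cdh17 passed with quantile normalization (0.0473) and with a strict filter (0.0462).

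Differences near 0 changed sign. Espn, at 0.01, was at -0.037 with quantile normalization, -0.0027 with the array median, -0.00063 with the percentile over spots (an alternative chosen after seeing the data), and between -0.11 and 0.14 with an array left out. Pls1 was at 0.075 with the median of its probes and between -0.13 and 0.031 with an array left out. In SIEC, Cdh17 was at -0.0054 with normexp, -0.19 with the array median and -0.18 in the authors' deposited table, and Ush1c was at -0.085 with the array median and -0.075 in that table. All 10 genes were lower in mTEC than in SIEC and passed under all 17 alternatives; the cause of the changes above was not tested.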
